A study of Mus musculus with 6 samples.

Results

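The genes described here encode enzymes that break down the amino acid tryptophan, mostly along the kynurenine pathway: Ido1, Ido2, Tdo2, Afmid, Kmo, Kynu, Haao and Il4i1. They were chosen by gene symbol, and each was read from the probe set that carries that symbol alone. A single-symbol probe set was found for 7 of the 8, out of 19938 genes measured in this way. Il4i1, a secreted L-amino acid oxidase, has no value here because its only probe set is annotated to 2 symbols.

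The series holds 6 Affymetrix Mouse Gene 1.0 arrays. Tibia and femur marrow of C57B/6 mice was grown for 6 days in 20 ng/ml recombinant GM-CSF, a cytokine that drives myeloid cells to grow and differentiate. Both populations come from such cultures and are labelled unstimulated: dendritic (3 arrays) and macrophage (3 arrays). The question addressed by the series is how these subsets differ in gene expression. The labels do not state how the cells were separated or whether replicates are separate mice or cultures, so p-values reflect the spread among these samples alone, which may be technical.

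In the kynurenine pathway, IDO1, its paralog IDO2 or the mainly hepatic TDO open the indole ring of tryptophan, and the formamidase AFMID then releases kynurenine. Kynurenine can be oxidised by KMO to 3-hydroxykynurenine, which KYNU cleaves to 3-hydroxyanthranilic acid and HAAO oxidises towards quinolinic acid, a precursor of NAD. In dendritic cells IDO1 is known for restraining T cells, through loss of tryptophan and through kynurenine, which is a ligand of the aryl hydrocarbon receptor.

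The labelled populations were checked against marker genes. All 8 macrophage markers, Csf1r, Adgre1 and Mertk among them, were lower in the dendritic population. Of 8 dendritic cell markers 6 were higher, Flt3, Ccr7 and Fscn1 among them, while Itgax was lower (log2 difference -2.52, limma adjusted p = 0.00285) and H2-Ab1 did not pass (adjusted p = 0.0745). Over all genes 21.6% passed limma at a Benjamini-Hochberg adjusted p of 0.05, with 9.98% higher and 11.6% lower in the dendritic population and a median difference of 0.03. The balance depended on scaling: 46.2% of the calls were higher as deposited, 51.2% after quantile normalization was applied again and 55.5% with centring on the 75th percentile. Levels are deposited log2 RMA values, a difference is the dendritic minus the macrophage mean of these values ± SE (n = 3 arrays in each), and so few arrays limit the precision. The table holds no detection calls, and levels of different probe sets are not compared with each other. In bulk RNA, fewer cells that express a gene and less RNA of it per cell cannot be told apart.

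The pathway did not move as a block. Of the 7 measured enzymes, Ido1, Kynu and Haao were higher in the dendritic population, Kmo was lower, and Ido2, Tdo2 and Afmid did not pass. The members' median difference was 0.44, and over all genes 9.98% were higher and 11.6% lower. For 6 of the 7 genes, all except Tdo2, no dendritic array lay within the range of the macrophage arrays or the reverse; 34.0% of all genes were separated in this way. The step catalysed by KMO thus differed in mRNA level in the opposite direction to the KYNU and HAAO steps after it.

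**Figure D1:**
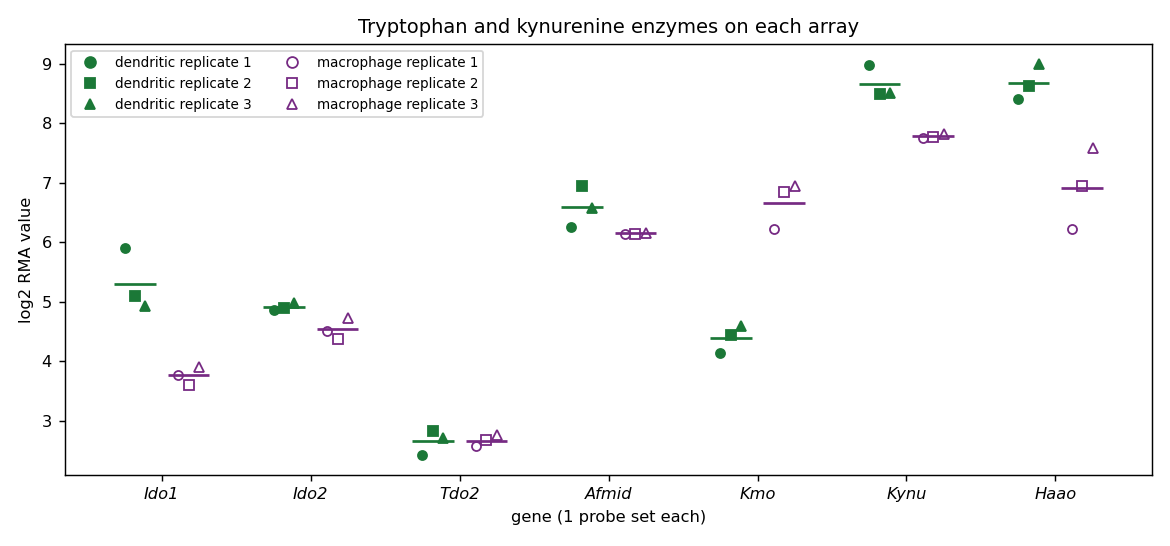
Log2 RMA value (vertical axis) of each measured enzyme (horizontal axis) on the 6 arrays, with filled green symbols for dendritic and open purple symbols for macrophage arrays, symbol shape for the replicate number, and horizontal bars for the population means. The dendritic symbols of Ido1, Kynu and Haao lie above all macrophage symbols, those of Kmo lie below them, and those of Tdo2 mix.

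**Figure D2:**
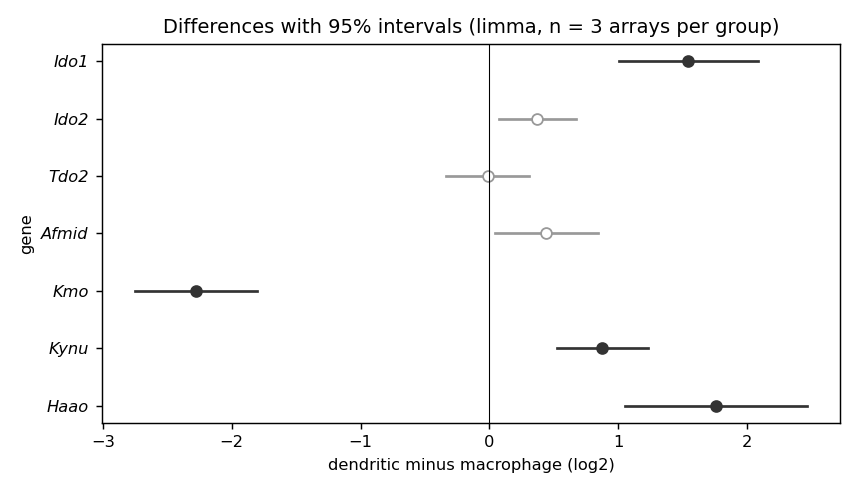
Dendritic minus macrophage difference (horizontal axis, log2) of each enzyme with its 95% interval from limma, n = 3 arrays per population. Filled symbols passed an adjusted p of 0.05: Kmo at -2.28, Kynu at 0.88, Ido1 at 1.54 and Haao at 1.76, while open symbols did not pass.

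Ido1 (probe set 10577655), the inducible enzyme of the first step, had log2 values of 5.90, 5.10 and 4.93 in dendritic replicates 1, 2 and 3. In the macrophage replicates it read 3.78, 3.61 and 3.91. The populations were separated by a gap of 1.02, and dendritic replicate 1 stood above the other dendritic arrays. The difference was 1.54 ± 0.24, or 2.92-fold higher in the dendritic population (limma adjusted p = 0.00144). It was 1.25 when dendritic replicate 1 was left out. RMA compresses differences of dim probe sets, and in the macrophage arrays between 26.8% and 32.1% of all probe sets were dimmer than this one.

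Ido2 (probe set 10577645) encodes the paralog of IDO1, a weaker tryptophan-degrading enzyme, and its gene lies next to Ido1. It read 4.87, 4.89 and 4.98 in the dendritic and 4.50, 4.38 and 4.73 in the macrophage replicates. All dendritic arrays lay above all macrophage arrays, but the gap was 0.14 and the difference of 0.37 ± 0.13 did not pass (limma adjusted p = 0.0847, 95% interval from 0.07 to 0.67). It passed in 1 of 14 alternatives, with arrays weighted by their quality (0.47, adjusted p = 0.0149).

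Tdo2 (probe set 10498921), the tryptophan dioxygenase of liver, read 2.42, 2.83 and 2.71 in the dendritic and 2.58, 2.68 and 2.76 in the macrophage replicates. The populations overlapped, and the difference was -0.01 ± 0.14 (limma adjusted p = 0.973, 95% interval from -0.34 to 0.31). On each array between 6.00% and 12.0% of probe sets were dimmer.

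Afmid (probe set 10382985), which encodes the formamidase of the second step, read 6.25, 6.95 and 6.58 in the dendritic replicates. The macrophage replicates were close together at 6.15, 6.14 and 6.16. The populations were only 0.09 apart at their nearest values, and the difference of 0.44 ± 0.18 did not pass (limma adjusted p = 0.122, 95% interval from 0.04 to 0.84). Without dendritic replicate 1 it was 0.61 and passed (adjusted p = 0.0174), as it did with array weights (0.52, adjusted p = 0.0136). In the RefSeq assembly GRCm38.p6 the gene overlaps the start of Tk1, thymidine kinase, so its probe set is uncertain where the 2 genes share sequence.

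Kmo (probe set 10352000), which encodes the mitochondrial enzyme that hydroxylates kynurenine, had the largest difference of the 7 enzymes. It read 4.14, 4.45 and 4.59 in the dendritic replicates and 6.22, 6.85 and 6.94 in the macrophage replicates. Every dendritic array lay at least 1.63 below every macrophage array, and replicate 1 was the lowest array of each population. The difference was -2.28 ± 0.21, 4.84-fold lower in the dendritic population (limma adjusted p = 6.57e-05). In order of absolute difference Kmo ranked 494 of 19938 genes.

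Kynu (probe set 10471912), the kynureninase, read 8.98, 8.50 and 8.51 in the dendritic replicates. In the macrophage replicates it read 7.76, 7.78 and 7.82, an SD of 0.03 (n = 3). The lowest dendritic array lay 0.67 above the highest macrophage array. The difference was 0.88 ± 0.16, or 1.83-fold higher in the dendritic population (limma adjusted p = 0.00319).

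Haao (probe set 10453260), which encodes the dioxygenase that acts on 3-hydroxyanthranilic acid, had the largest upward difference of the 7. It read 8.41, 8.63 and 9.01 in the dendritic replicates and 6.23, 6.95 and 7.59 in the macrophage replicates. The macrophage arrays spread over more than 1 log2 unit (SD 0.68, n = 3), yet the highest of them lay 0.81 below the lowest dendritic array. The difference was 1.76 ± 0.31, or 3.38-fold higher in the dendritic population (limma adjusted p = 0.00313). It ranged from 1.41 to 2.09 when single arrays were left out, lowest without macrophage replicate 1 and highest without macrophage replicate 3.

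The sequences before the start sites of Kmo and Haao are shown because these genes differed most and in opposite directions. They are the 250 bases upstream of the RefSeq start, 5′ to 3′ on the gene's own strand, in assembly GRCm38.p6: chr1:175631943-175632192, plus strand, for Kmo and chr17:83846791-83847040, minus strand, for Haao. Of the 8 genes, 5 (Kmo, Tdo2, Il4i1, Afmid and Haao) matched an entry of the promoter table. Capitals mark matches to any of 8 short motifs searched on both strands.
Kmo: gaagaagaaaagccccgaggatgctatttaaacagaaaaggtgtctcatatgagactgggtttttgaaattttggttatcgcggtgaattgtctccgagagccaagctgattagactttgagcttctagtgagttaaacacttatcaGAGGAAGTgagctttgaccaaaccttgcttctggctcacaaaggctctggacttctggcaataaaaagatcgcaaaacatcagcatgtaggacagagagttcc
Haao: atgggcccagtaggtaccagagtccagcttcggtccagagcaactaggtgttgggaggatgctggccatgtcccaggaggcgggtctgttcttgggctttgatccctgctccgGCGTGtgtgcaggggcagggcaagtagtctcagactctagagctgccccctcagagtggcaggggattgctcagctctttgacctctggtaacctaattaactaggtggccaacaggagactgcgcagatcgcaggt
The capitals in Kmo are GAGGAAGT, a core recognised by Ets factors such as PU.1, located 103 to 96 bases before the start. This motif was found in 2.44% of 32851 promoter windows of the same length. The capitals in Haao are GCGTG, the core of aryl hydrocarbon receptor sites, which 28.2% of windows hold. Neither window held the other motifs searched: the interferon response element written as GAAA, any 2 bases and GAAA (2.98% of windows), STAT TTCNNNGAA (7.02%), kappaB written as GGGA, any 4 bases and CC (17.6%), AP-1 TGANTCA (6.75%), E-box CACGTG (6.02%) and TATA box TATAAA (12.4%). Among the other members' windows, the Ets core was also found in that of Il4i1 and GCGTG in that of Tdo2, which did not pass. The probe set that Il4i1 shares with another symbol was higher in the dendritic population (4.93 ± 0.25), and Kmo was lower. Values of that probe set belong to neither symbol alone. Any part of the motifs in these levels was not tested. The Il4i1 window also held a kappaB match and the Tdo2 window a TATA box match. The motifs do not contain one another, and a match is a description of letters and not of a binding site.

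Markers of other cells varied between arrays of a population, and their values stand here beside the members that varied most. In the macrophage arrays the mean log2 value of the 8 dendritic cell markers was 6.48, 6.67 and 6.97 for replicates 1, 2 and 3, against 9.48 to 9.69 in the dendritic arrays. This mean ranked the macrophage arrays as Haao did, but of the single markers only 3 of 8 did so (Zbtb46, Fscn1 and Dpp4). Of the 5 stromal markers, none of which was called, 4 did so as well. Itgax, which was lower in the dendritic population, is part of that mean. Of the 10 neutrophil and granule markers, 1 was called between the populations (Mpo, lower), but their mean was 7.18, 6.70 and 6.45 in the dendritic and 7.46, 6.50 and 6.57 in the macrophage replicates. Replicate 1 thus had the highest mean of these markers in each population. Of the single markers, Elane, Mpo, Cebpe and Prtn3 were highest on other dendritic arrays. In each population Kmo and Haao were lowest on replicate 1, and among dendritic arrays Ido1 and Kynu were highest on it. The part of these markers in the members' values was not tested.

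Ido1, Kmo, Kynu and Haao kept their calls without each array in turn. Of 8 markers of mast cells, basophils and eosinophils, 1 was called and 7 were not, with means of 4.57 to 4.97 in dendritic and 3.93 to 4.69 in macrophage arrays. The one called was Kit, also a receptor of progenitors, which was higher (limma adjusted p = 0.00189) and read 8.60, 7.07 and 6.50 in the dendritic replicates. The 4 measured B cell markers had means of 4.34 to 4.59 in dendritic and 3.91 to 4.30 in macrophage arrays, and 1 of them (Cd79a) was called, as higher. Of 5 markers of T and NK cells none was called (3.46 to 3.68 against 3.51 to 3.65). The 5 plasmacytoid dendritic cell markers had means of 6.53 to 6.73 in dendritic and 6.14 to 6.37 in macrophage arrays. Only Bst2 of them, which is also interferon-induced, was called, as higher by 1.89 ± 0.20. None was called of 3 erythroid (4.40 to 4.64 against 4.24 to 4.54) and 5 stromal markers (4.26 to 4.93 against 4.54 to 5.07). RMA values have no zero, so no marker is listed at 0.

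**Figure D3:**
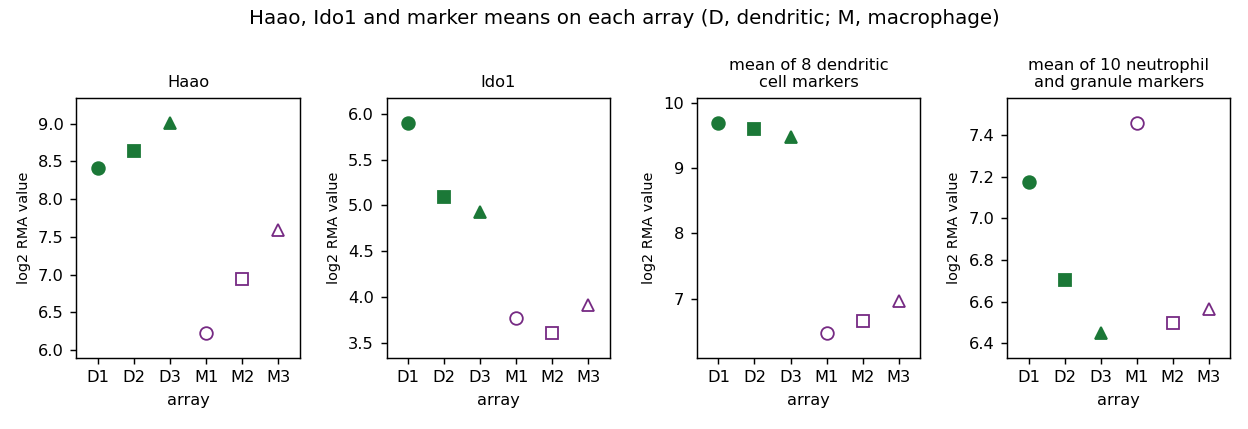
Log2 RMA value (vertical axes) on the 6 arrays (horizontal axes; D1 to D3 dendritic, M1 to M3 macrophage) of Haao, Ido1, the mean of 8 dendritic cell markers and the mean of 10 neutrophil and granule markers. Vertical axes do not start at 0 and differ between panels; the neutrophil mean was highest on D1 (7.18) and M1 (7.46), and the dendritic marker mean ranked the macrophage arrays as Haao did, while only 3 of the 8 single markers did.

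The genes whose profiles over the 6 arrays lay closest to Haao and Kmo were found by the root mean square distance of log2 values, each centred on its own mean. Among the 3 nearest to Haao were Fah, the last enzyme of tyrosine breakdown (distance 0.19), and Bst2 (0.22). Fah read 6.33, 6.53 and 7.004 in the dendritic and 4.67, 4.98 and 5.47 in the macrophage replicates. Within each population it ranked the arrays as Haao did, and Bst2 did so too. Both genes were picked for closeness to Haao on these same arrays, so the shared order is not a separate observation. Nearest to Kmo were Chchd10, a mitochondrial protein (0.10), the pseudogene Klk1b7-ps (0.11) and the protein kinase C gene Prkcb (0.16). Chchd10 differed by -2.22 ± 0.21 and Prkcb by -2.09 ± 0.24. Klk1b7-ps is uncertain, since kallikrein genes are near-identical copies of one another.

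Of 10 genes of the quinolinate and kynurenic acid branches and of NAD synthesis, 2 were higher and none lower (median -0.02), a share of calls near the 21.6% of all genes. Nmnat3, a mitochondrial enzyme that makes NAD from its mononucleotide, read 7.28, 7.52 and 7.49 in the dendritic and 6.15, 6.46 and 6.50 in the macrophage replicates, a difference of 1.06 ± 0.14 (limma adjusted p = 0.000675). Got2, an aspartate aminotransferase that can also make kynurenic acid, was higher by 0.66 ± 0.16 (limma adjusted p = 0.0146) and lost its call when dendritic replicate 3 (0.0552), macrophage replicate 2 (0.0662) or macrophage replicate 3 (0.0557) was left out. Qprt, which converts the product of the HAAO step towards NAD, differed by -0.14 ± 0.20 (limma adjusted p = 0.769). The dedicated kynurenine aminotransferases Kyat1 (-0.03), Kyat3 (-0.35) and Aadat (-0.06) did not pass, nor did Acmsd (0.06), which diverts the pathway from quinolinate. The probe sets of Aadat and Acmsd were dim (population means of 2.81 to 2.87).

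Genes that make NAD by other routes or consume it differed in both directions. Of 13 measured genes 2 were higher and 6 lower (median -0.28), against 9.98% higher and 11.6% lower over all genes. The largest difference was that of Bst1, an ectoenzyme that cleaves NAD, at 4.08, 3.92 and 4.13 in the dendritic and 9.15, 9.81 and 9.57 in the macrophage replicates (-5.46 ± 0.18, limma adjusted p = 2.91e-07). The NAD kinase Nadk (-1.33 ± 0.19) and Nampt (-0.84 ± 0.14), the rate-limiting enzyme of salvage from nicotinamide, were lower. The deacetylase Sirt1 (1.38 ± 0.26) and Naprt (0.93 ± 0.14), which salvages nicotinic acid, were higher. The count of lower genes fell to 3 of 13 without dendritic replicate 2 or macrophage replicate 3, with all probe sets tested, and with 75th percentile centring.

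Carriers of tryptophan and kynurenine were lower where they passed. Of 8 measured, 3 were lower and none higher (median -0.56), against 11.6% lower and 9.98% higher over all genes. Slc7a8, a light chain of neutral amino acid exchange, read 4.03, 3.69 and 3.88 in the dendritic and 7.27, 6.80 and 6.30 in the macrophage replicates (-2.92 ± 0.23, limma adjusted p = 2.47e-05). Slc36a4, a high-affinity tryptophan carrier, differed by -2.14 ± 0.16, and Slc16a10, which carries aromatic amino acids, by -1.70 ± 0.31. Slc7a5, the main exchanger of kynurenine and tryptophan in activated lymphocytes, varied widely, with 5.99, 7.68 and 8.27 in dendritic and 5.50, 7.02 and 6.62 in macrophage replicates. Its difference of 0.93 ± 0.56 did not pass (limma adjusted p = 0.343). It passed when the replicate number was a block (adjusted p = 0.0173) and without dendritic replicate 1 (1.59, adjusted p = 0.0238). Its partner chain Slc3a2 differed by -0.02 ± 0.13.

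**Figure D4:**
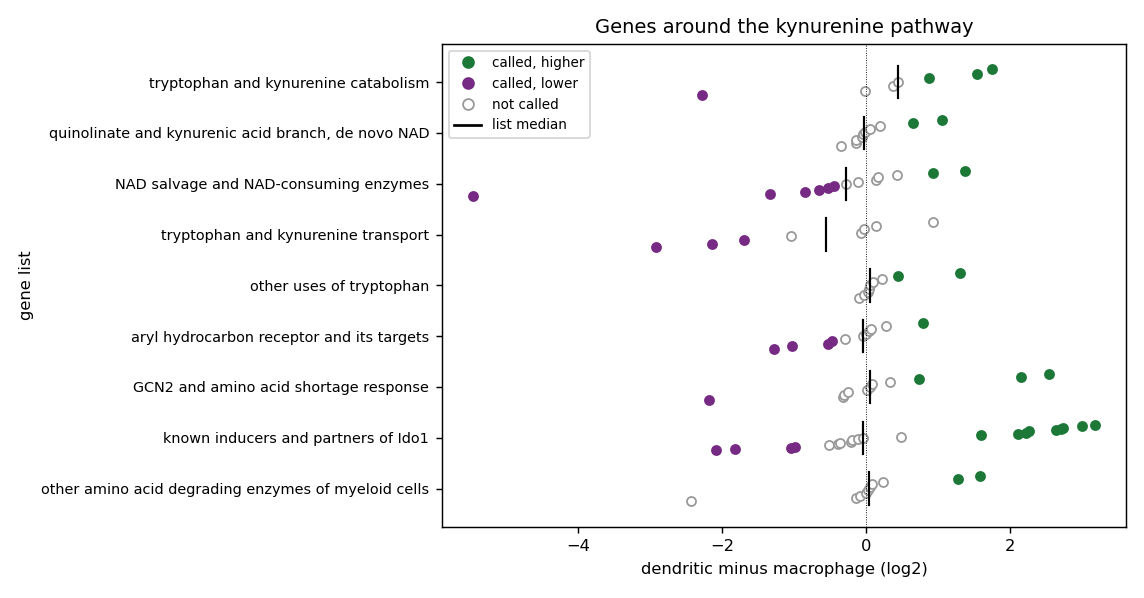
Dendritic minus macrophage difference (horizontal axis, log2) of every measured gene in the enzyme set and 8 surrounding lists (vertical axis), with filled green for called and higher, filled purple for called and lower, open grey for not called, and a black bar for the list median. Called genes lie on both sides of 0 in the enzyme set, the NAD salvage, aryl hydrocarbon receptor and GCN2 lists and the Ido1 inducer list, and Bst1 is the lowest point at -5.46.

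Of 9 genes for other uses of tryptophan, 2 were higher and none lower (median 0.06), again near the share of all genes (21.6%). Wars, the interferon-inducible synthetase that loads tryptophan onto its transfer RNA, read 8.18, 7.91 and 7.96 in the dendritic and 6.75, 6.76 and 6.63 in the macrophage replicates. It was higher by 1.30 ± 0.13 (limma adjusted p = 9.61e-05), while its mitochondrial counterpart Wars2 differed by -0.09 ± 0.12. The monoamine oxidase Maob was higher by 0.45 ± 0.13 (limma adjusted p = 0.0335). That call was lost without each single array other than macrophage replicate 3, when quantile normalization was applied again (0.0544) and with all probe sets tested (0.0580). Across the alternatives its adjusted p ran from 0.0134 to 0.132. The tryptophan hydroxylases of serotonin synthesis, Tph1 (0.03) and Tph2 (0.09), did not pass, and their probe sets were dim (population means of 2.79 to 3.08).

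The receptor that kynurenine can bind was higher, and the genes of its list that passed otherwise were lower. Of 11 measured genes 1 was higher and 4 were lower (median -0.04), against 9.98% higher and 11.6% lower over all genes. Ahr, the aryl hydrocarbon receptor, read 7.58, 7.49 and 7.43 in the dendritic and 6.32, 6.96 and 6.83 in the macrophage replicates (0.79 ± 0.18, limma adjusted p = 0.0104). Its partner Arnt was lower (-0.53 ± 0.12). Of its target genes, Tiparp (-1.03 ± 0.13) and the quinone reductase Nqo1 (-1.28 ± 0.26), which is also a target of NRF2, were lower. Ahrr of the same list was lower by a smaller amount (-0.47 ± 0.12, limma adjusted p = 0.0218). It kept its call in 9 of 15 alternatives (adjusted p up to 0.117). The targets Cyp1a1 (-0.04) and Cyp1b1 (0.28) did not pass, and both probe sets were dim (population means of 3.45 to 3.84).

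Genes of GCN2, the kinase that senses uncharged transfer RNA, and of the response to amino acid shortage were mixed. Of 11 measured, 3 were higher and 1 lower (median 0.05), against 9.98% higher and 11.6% lower over all genes. Ppp1r15a, a phosphatase subunit that ends the response, was higher by 2.55 ± 0.14, and the stress gene Sesn2 by 2.16 ± 0.19. Ddit3 was higher by 0.74 ± 0.20 (limma adjusted p = 0.0260), a call lost without each single array other than dendritic replicate 1 and with all probe sets tested (adjusted p from 0.000715 to 0.0964 across the alternatives). Cebpb, a transcription factor of myeloid cells, was lower (-2.18 ± 0.20). The kinase itself, Eif2ak4 (-0.32), and the ATF4 targets Asns (0.05), Trib3 (-0.30) and Chac1 (0.01) did not pass.

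Known inducers and partners of Ido1 differed in both directions. Of 21 measured, 9 were higher and 4 lower (median -0.04), against 9.98% higher and 11.6% lower over all genes. The non-canonical NF-kB genes Map3k14 (3.19 ± 0.14) and Relb (3.005 ± 0.14) and the interferon-induced factor Irf1 (2.73 ± 0.17) had the largest upward differences. Irf1 read 9.38, 9.46 and 9.82 in the dendritic and 7.03, 6.86 and 6.57 in the macrophage replicates. The interferon-gamma receptor chain Ifngr1 (-2.08 ± 0.30), the prostaglandin E2 receptor Ptger2 (-1.82 ± 0.25) and Cyb5a (-1.04 ± 0.17), a cytochrome b5 that can reduce IDO1, were lower. Ptger4, another prostaglandin E2 receptor, was higher by 2.64 ± 0.24 (limma adjusted p = 6.57e-05). Socs3, which marks IDO proteins for degradation, differed by -0.04 ± 0.28.

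Of 10 other enzymes of amino acid metabolism, 2 were higher and none lower (median 0.04), near the share of all genes (21.6%). Asns is counted here and in the GCN2 list. Fah (1.58 ± 0.23, limma adjusted p = 0.00115) and Asl (1.28 ± 0.13), the argininosuccinate lyase, were higher. Arg1, the arginase of alternatively activated macrophages, read 4.88, 4.92 and 5.18 in the dendritic replicates and 10.004, 5.98 and 6.27 in the macrophage replicates. Macrophage replicate 1 stood far above the others, and the difference of -2.43 ± 0.88 did not pass (limma adjusted p = 0.0900). It passed when the replicate number was a block (adjusted p = 0.0442), without macrophage replicate 1 (-1.13, adjusted p = 0.00125) and without macrophage replicate 2 (-3.14, adjusted p = 0.0366).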

How the data were processed

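The members and the gene lists were chosen with earlier results of these data known. RNA of 6 samples (6 ug total RNA each, biotin-labelled per the labels) was hybridised to 1 array each. The deposited values are log2 values per probe set, which the authors made in R 3.0.2 with RMA (per the submitters' processing notes), a method of background correction, quantile normalization and probe summary that compresses differences of dim probe sets. The labels do not state on which arrays it was run, any filter or a genome build. The 35556 probe sets lie between 1.29 and 13.4, with array medians of 4.79 to 4.96.

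Probe sets were named from the platform's gene table: 21789 had 1 symbol, 1621 several and 12146 none. Entrez identifiers of 21698 were found in RefSeq (GRCm38.p6) and 0 symbols changed. For the 999 genes with several probe sets the one with the highest mean over 6 arrays was used, leaving 19938 genes. limma 3.58.1 in R 4.3.3 (lmFit, eBayes, 2-sided, Benjamini-Hochberg over all genes, threshold 0.05) tested the population on all arrays, with no filter on level, and was tested on simulated data. Python 3.11.15, pandas 2.3.3 and matplotlib 3.10.9 made the tables and figures. Named genes are the members and, per list, up to 3 called genes in each direction. List genes without a single-symbol probe set were not analysed here, and 1 nearest profile is not reported here. Genes that did not pass, and others singled out, were chosen after their values were seen. Nearest profiles are the 3 genes closest to the called member of largest difference in each direction.

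The titles give replicate numbers in each population. Deviations from the population means of same-numbered arrays correlated at 0.385, 0.147 and 0.272, each above 0.1, so the replicate number was fitted as a block in 1 alternative. Arrays of different number also exceeded 0.1, dendritic 2 with macrophage 3 at 0.155 and dendritic 3 with macrophage 2 at 0.128, so any pairing rests mostly on number 1. The labels do not state what a number marks. The fit without the block is the main one, so its SEs, intervals and p-values take no account of any pairing. The alternatives were the replicate number as a block, all probe sets tested, the mean of a gene's probe sets, filters at the 30th percentile and the median of level, a second quantile normalization, centring on the 75th percentile, array weights, trend and robust eBayes, and each array left out in turn.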

Additional observations from a re-analysis of the deposited data

How the results depend on the processing

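The calls of Ido1, Kmo, Kynu and Haao were kept in every alternative that could test them, out of 15 (Ido1 falls below the median level and was tested in 14). Their adjusted p ranged from 0.000129 to 0.00853 for Ido1, 3.18e-06 to 0.000839 for Kmo, 0.000545 to 0.0156 for Kynu and 0.000177 to 0.0161 for Haao. With array weights 5 enzymes were higher rather than 3, since Ido2 (0.47) and Afmid (0.52) passed. With single arrays left out the number higher was 3 to 4 (Afmid from 0.26 to 0.61). With the replicate number as a block no member's call changed, with Ido2 at a limma adjusted p of 0.0521 and Afmid at 0.0753. The block made 1 transport gene (Slc7a5) higher and 1 other amino acid enzyme (Arg1) lower where there were none. With array weights 1 gene of the quinolinate list (Kyat3) and 2 of the GCN2 list (Eif2ak4 and Cebpb) were lower. NAD genes lower numbered 3 with all probe sets tested and with 75th percentile centring, and 3 to 5 with single arrays left out. Genes higher among other uses of tryptophan numbered 1 with all probe sets tested, with either level filter and with quantile normalization again, and 1 to 2 with single arrays left out. Leaving out single arrays gave 1 to 2 quinolinate genes higher, 0 to 1 transport genes higher and 0 to 1 other amino acid enzymes lower. The level filters leave out dim members (Tdo2 in both, Ido1 and Ido2 in that at the median). Both filters also leave out Maob, so their count of 1 among other uses of tryptophan reflects its absence. The cause of the other changes was not tested. Centring on the 75th percentile moved the median difference of all genes by 0.10. With 3 arrays per population and no detection calls, whether a dim probe set such as that of Tdo2 measured any transcript is not known. The same holds for those of Cyp1a1, Cyp1b1, Asns, Tph1, Tph2, Aadat and Acmsd, which the 30th percentile filter also leaves out.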

Other observations

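The member left out of the comparison has 1 probe set on the array (10552743), which the platform's table assigns to both Il4i1 and Il4i1b. These gene models overlap in the RefSeq assembly, so the values belong to the probe set and to neither gene alone. Its log2 value was 10.22, 10.10 and 10.21 in the dendritic replicates and 4.98, 4.93 and 5.85 in the macrophage replicates. The populations did not overlap, and the dendritic arrays agreed within an SD of 0.07 (n = 3). The difference was 4.93 ± 0.25, 30.4-fold higher in the dendritic population (limma adjusted p = 5.92e-05 over all 35556 probe sets), larger than that of any of the 7 enzymes measured by a single-symbol probe set.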
